A study of Bos taurus with 8 samples.

Results

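The genes described here encode the proteins of the mitochondrial respiratory chain and of ATP synthase, which together carry out oxidative phosphorylation. They were taken by symbol, as every gene whose name begins with NDUF, SDHA to SDHD, UQCR, COX4 to COX8, CYC1, CYCS or ATP5, a rule that uses no measured ratio. The bovine RefSeq gene table held 102 such symbols. Of these, 72 had a probe on the array matched by transcript accession, 1 probe each, out of 6693 named genes with a kept probe. All 72 were well above background in each of 16 channel readings, so 0 were lost to the filter on dim probes, which asked for at least 4. The 72 fall into 36 genes of complex I (6 core subunits, 28 accessory subunits and 2 assembly factors), 6 of complex II, 6 of complex III, 11 of complex IV and 13 of complex V. The other 30 symbols, among them CYCS, COX5A, COX5B, COX6A1, COX6C, COX8B, UQCRC2 and ATP5F1C, were not matched to a probe and were not analysed here.

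RNA came from the semitendinosus, in the hind leg, of bulls aged 15 months. There were 4 Hereford, 4 Holstein-Friesian and 4 Limousin bulls, and the study set the first 2 breeds, described as well marbled (rich in fat within the muscle), against the lean Limousin. Each of 8 Agilent 2-colour arrays carried 1 Hereford or 1 Holstein-Friesian bull together with 1 of the same 4 Limousin bulls. Hereford RNA was labelled with Cy5 and Limousin RNA with Cy3 on 1 slide, and Holstein-Friesian RNA was labelled with Cy3 and Limousin RNA with Cy5 on the other, so that breed, slide and dye orientation cannot be told apart. Values below are log2 ratios of a breed over Limousin after loess normalisation within the array, listed in the order of Limousin bulls 1 to 4. The mean of both breeds was taken per Limousin bull, which gives 4 values in which a shared dye effect cancels.

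The respiratory chain passes electrons from NADH (complex I, NADH dehydrogenase) and from succinate (complex II, succinate dehydrogenase) through ubiquinone to complex III, and by cytochrome c to complex IV, which reduces oxygen. Complexes I, III and IV pump protons across the inner mitochondrial membrane, and ATP synthase, complex V, uses their return to make ATP. In skeletal muscle the content of these enzymes is a mark of oxidative capacity, and it is higher in slow-twitch fibres than in fast glycolytic fibres. All genes named here are in the nuclear genome, while the remaining subunits are encoded in mitochondrial DNA and were not part of the rule.

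Markers of skeletal muscle were present, since 9 of 11 markers of the muscle fibre were measured and all 9, such as ACTA1, CKM and MYH7, were well above background in every reading. Median net signal lay between 97.25 and 139.75 intensity units in Hereford and between 30.5 and 46.75 in Holstein-Friesian. In Limousin it lay between 63.5 and 88 in Cy3 and between 97 and 117.5 in Cy5. Probes of the 72 genes were mostly bright, with a median log2 spot brightness of 13.89, against 7.86 over all 17061 kept probes. The dimmest of them stood at 6.55, and COX4I2 was also dim, at normalised linear levels of 111.4 to 262.9. Correlation across probes was 0.0611 to 0.531 between Hereford arrays and 0.403 to 0.595 between Holstein-Friesian arrays, and 4 arrays a breed limit the precision throughout.

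The first question was whether the set as a whole stood apart between the marbled breeds and Limousin, and its shift was small. The median of the 72 genes was 0.13 log2 in Hereford, 0.11 in Holstein-Friesian and 0.13 in the mean of both breeds, after loess, against 0.008, -0.015 and -0.001 over all probes. A median of 0.13 is a 1.09-fold higher level in the marbled breeds than in Limousin. The ratio was above 0 for 60 of 72 genes in Hereford, 46 in Holstein-Friesian and 55 in the mean of both. With each array centred on its median in place of loess, the set's median was 0.49 in Hereford, -0.56 in Holstein-Friesian and -0.013 in the mean (all probes 0.099, -0.20 and 0.001), so the sign in Holstein-Friesian and in the mean turned with the scaling. Read in the same dye across slides, the medians were 0.15 in Hereford and 0.043 in Holstein-Friesian.

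**Figure D1:**
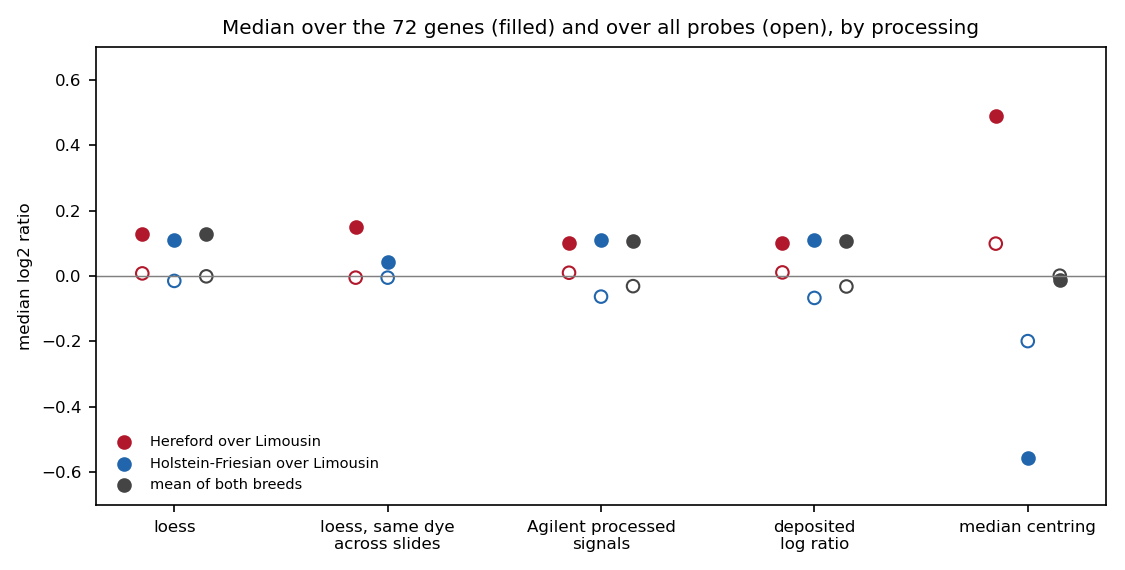
Median log2 ratio over the 72 genes (filled) and over all probes (open), on the vertical axis, under 5 ways of processing the same arrays; red is Hereford over Limousin, blue Holstein-Friesian over Limousin and grey the mean of both breeds. The set lies above 0 in both breeds under loess, Agilent's processed signals and the deposited log ratios, and at 0.49 in Hereford but -0.56 in Holstein-Friesian under median centring. The processed signals and the deposited log ratios gave the same medians over the 72 genes and are not separate checks.

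Few single genes differed beyond the spread between arrays. In Hereford 5 of 72 genes (6.94%) rose and 0 fell at a limma adjusted p under 0.05, where 7.14% of all probes were called, 3.39% higher and 3.75% lower. At an unadjusted p under 0.05 there were 22 of 72 (30.6%), against 24.2% of all probes. In Holstein-Friesian 4 rose and 1 fell (6.94%), against 6.45% of all probes, 3% higher and 3.45% lower. None of the 72 passed in the mean of both breeds in limma, against 0.598% of all probes (0.322% higher and 0.275% lower), with 14 higher and 3 lower at an unadjusted p under 0.05 (23.6%, against 19.6% of all probes). The members' shares in each breed are thus near the background. When arrays that share a Limousin bull were tied in a replicate block, 4 genes of the 72 passed in the mean of both breeds, namely COX7A2 (limma adjusted p = 0.0171), ATP5PO (0.0169), NDUFA12 (0.0225) and NDUFA5 (0.0283), against 5.33% of all probes.

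The calls depended on which animals were included. Without replicate 1, 2, 3 or 4, limma called 4, 0, 1 and 0 of the 72 genes in Hereford (22, 13, 15 and 24 unadjusted) and 4, 0, 1 and 1 in Holstein-Friesian (20, 14, 19 and 22 unadjusted). Calls over all probes moved likewise, at 6.18%, 0.264%, 2.06% and 0.176% in Hereford and 4.75%, 0.457%, 1.61% and 0.744% in Holstein-Friesian. The 1 Hereford call without replicate 3 was a fall of SDHC, which did not pass with all arrays. Fitted on the Hereford arrays alone, 0 passed in limma (15 unadjusted), with 0.158% of all probes called. Fitted on the Holstein-Friesian arrays alone, 5 passed, with 4.92% of all probes called.

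Ratios were small throughout. In the mean of both breeds 58 of 72 genes (80.6%) lay within 0.25 log2 of 0, as did 78.9% of all named genes. The 95% confidence interval of that mean had a median half-width of 0.25 log2, lay within -1 and 1 for all 72 genes, and reached 0.5 or -0.5 for 17. All 4 arrays lay on 1 side of 0 for 15 genes above and 2 below in Hereford (23.6%, against 27.7% of all probes), and for 16 above and 9 below in Holstein-Friesian (34.7%, against 36.5%). Of the 72 genes, 7 were above 0 on all 8 arrays, namely NDUFA6, NDUFA12, NDUFB3, COX4I2, COX7A2, ATP5F1B and ATP5PO, and 0 were below 0 on all 8. Both directions together made 9.72% of the 72 genes, against 7.27% of all probes, also counted in both directions.

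**Figure D2:**
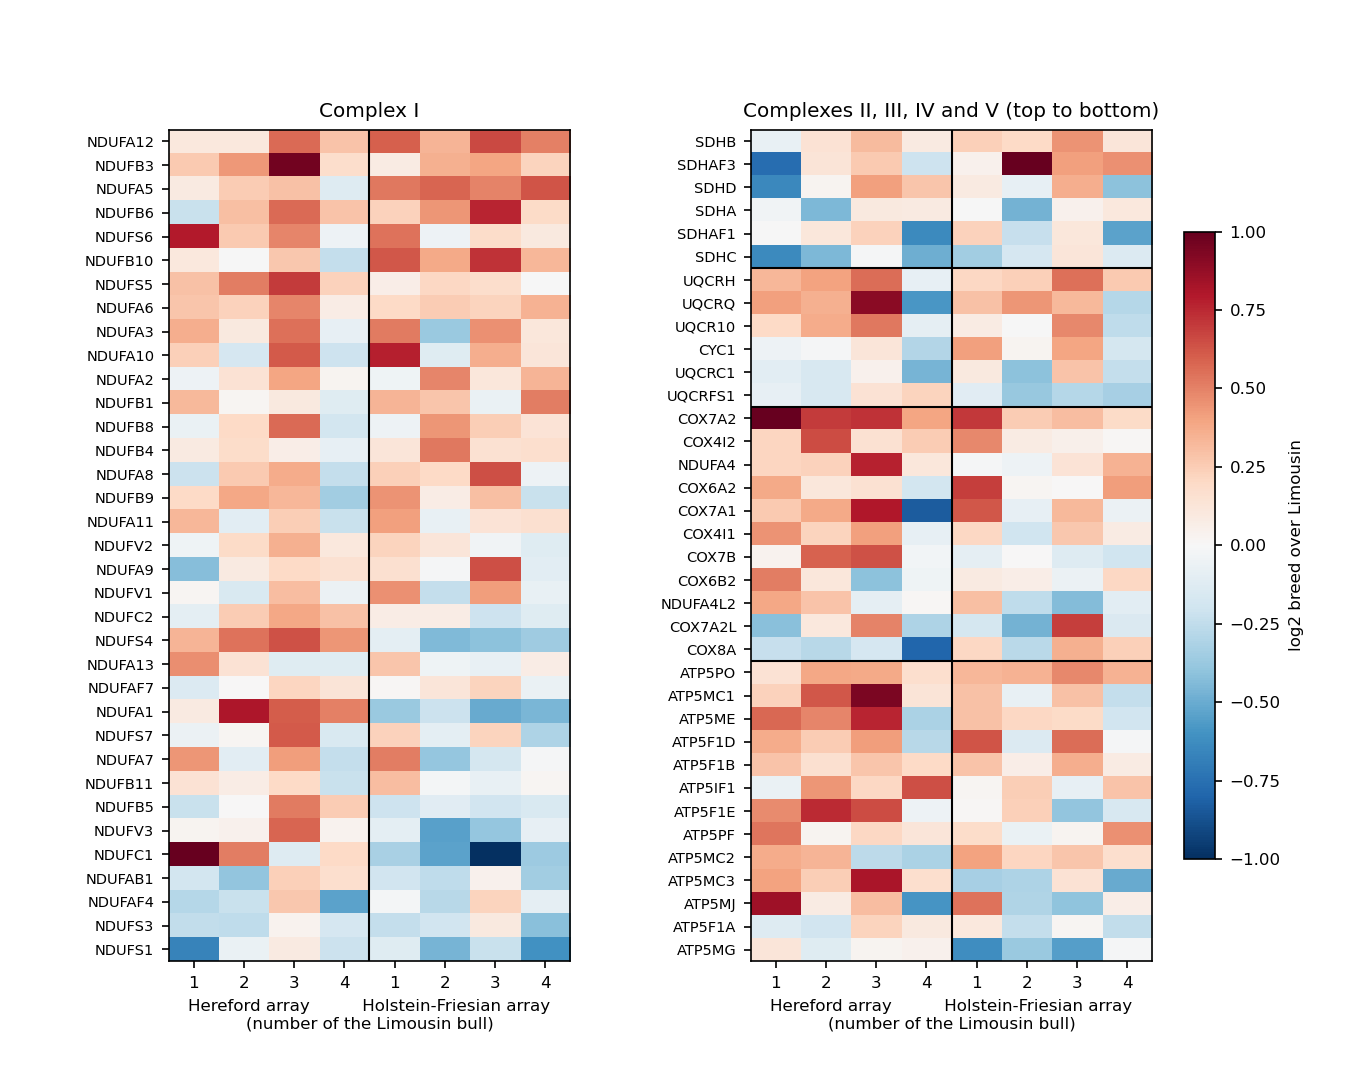
Log2 ratio of breed over Limousin for 71 of the 72 genes (rows, by complex, sorted by the mean of both breeds) on each of 8 arrays (columns, numbered by the Limousin bull); red is higher and blue lower than Limousin, and colours are at their limit beyond 1 and -1. The Hereford array with Limousin bull 3 is red for 64 of these 71 genes, while that with bull 4 is red for 32.

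Complex I is the largest of the complexes, and its flavin and iron-sulfur core is wrapped in accessory subunits. The medians of its 36 genes were 0.13 in Hereford, 0.13 in Holstein-Friesian and 0.094 in the mean of both breeds (0.48, -0.51 and -0.029 under median centring). The 6 core subunits had medians of 0.068, -0.088 and -0.038, and the 28 accessory subunits 0.13, 0.18 and 0.15, with 27 of 28 accessory subunits above 0 in Hereford and 20 of 28 in Holstein-Friesian. Among the accessory subunits 3 rose in Hereford, and 3 rose and 1 fell in Holstein-Friesian, and no other complex I gene was called. These calls are 8.33% and 11.1% of the 36 genes, against 7.14% and 6.45% of all probes. With only 6 core subunits and shares this low, the lack of a call there shows no contrast. The difference between core and accessory subunits was not tested.

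NDUFS4, a subunit of the NADH-oxidising arm that is needed late in its assembly, stood at 0.34, 0.54, 0.64 and 0.44 log2 on the 4 Hereford arrays and at -0.099, -0.44, -0.41 and -0.35 on the 4 Holstein-Friesian arrays. Every Hereford array was above Limousin and every Holstein-Friesian array below it, with no overlap between the breeds. It rose in Hereford by a mean of 0.49 (SD 0.13, n = 4, limma adjusted p = 0.0144) and fell in Holstein-Friesian by 0.33 (SD 0.16, n = 4, limma adjusted p = 0.045). The Holstein-Friesian fall no longer passed with the bull as a block. In the mean of both breeds NDUFS4 was at 0.082 (SD 0.041, limma adjusted p = 0.432), and read in the same dye at 0.30 in Hereford and -0.14 in Holstein-Friesian (limma adjusted p = 0.158 and 0.399).

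NDUFA1, a small membrane subunit, had the same form. Its ratios were 0.093, 0.81, 0.61 and 0.50 in Hereford and -0.37, -0.21, -0.50 and -0.46 in Holstein-Friesian, again on opposite sides of 0. The Hereford rise averaged 0.50 (SD 0.30, n = 4, limma adjusted p = 0.0348), and the Holstein-Friesian mean of -0.39 (SD 0.13) did not pass (limma adjusted p = 0.0783). In the same dye NDUFA1 stood at 0.34 in Hereford and -0.22 in Holstein-Friesian, and neither passed (limma adjusted p = 0.0725 and 0.33). NDUFS5, an accessory subunit on the intermembrane space side, read 0.29, 0.51, 0.70 and 0.23 in Hereford and 0.065, 0.21, 0.18 and -0.005 in Holstein-Friesian. All Hereford values were above all Holstein-Friesian ones, and the gene rose in Hereford by 0.43 (SD 0.22, n = 4, limma adjusted p = 0.0265), as it did in the same dye (0.42, limma adjusted p = 0.0296).

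The 3 rises in Holstein-Friesian were of other subunits. NDUFA5, in the arm that reaches into the matrix, stood at 0.53, 0.58, 0.49 and 0.63 on the Holstein-Friesian arrays and at 0.092, 0.25, 0.29 and -0.13 on the Hereford arrays. The Holstein-Friesian values were close to each other and all above the Hereford ones, with a mean rise of 0.56 (SD 0.061, n = 4, limma adjusted p = 0.00948). This gene is also 1 that read differently in the 2 dyes in Limousin itself, at -0.40 log2 in Cy5 minus Cy3 (limma adjusted p = 0.048), and in the same dye its Holstein-Friesian ratio was 0.16 (limma adjusted p = 0.613).

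NDUFA12, another matrix arm subunit, read 0.60, 0.34, 0.66 and 0.50 in Holstein-Friesian and 0.11, 0.11, 0.56 and 0.29 in Hereford, above Limousin on all 8 arrays. It rose in Holstein-Friesian by 0.52 (SD 0.14, n = 4, limma adjusted p = 0.0175), but did not pass in the same dye (0.38, limma adjusted p = 0.10). Its mean of both breeds, 0.39 (SD 0.16, limma adjusted p = 0.0854), was the highest of complex I. NDUFB10, a membrane arm subunit facing the intermembrane space, was at 0.62, 0.38, 0.72 and 0.34 in Holstein-Friesian and at 0.11, -0.004, 0.27 and -0.24 in Hereford. All Holstein-Friesian arrays were above all Hereford arrays, and the rise of 0.51 (SD 0.19, n = 4, limma adjusted p = 0.024) was 0.53 in the same dye (limma adjusted p = 0.0313). Under median centring the Holstein-Friesian means of NDUFA5, NDUFA12 and NDUFB10 were -0.10, -0.14 and -0.16, so the direction of these 3 genes turned with the scaling.

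At the low end of complex I stood NDUFS1, the largest core subunit, which carries iron-sulfur clusters. Its ratios were -0.67, -0.067, 0.087 and -0.21 in Hereford and -0.12, -0.47, -0.22 and -0.61 in Holstein-Friesian, with 7 of 8 arrays below Limousin. The mean of both breeds was -0.29 (SD 0.16, n = 4 bulls) and did not pass (limma adjusted p = 0.141). The core subunits NDUFS3, NDUFS7, NDUFV1 and NDUFV2 had Hereford means between -0.16 and 0.15 and Holstein-Friesian means between -0.19 and 0.14. NDUFC1, a small membrane subunit, had the widest gap between breeds of any of the 72 genes, at 0.41 in Hereford and -0.55 in Holstein-Friesian, but its Hereford arrays spread from -0.13 to 1.07 (SD 0.51) and the difference did not pass (limma adjusted p = 0.092). NDUFA6, a matrix arm subunit, was steady at 0.27 and 0.26 with SDs of 0.17 and 0.066 (limma adjusted p = 0.0612 and 0.0745). The assembly factors NDUFAF4 and NDUFAF7, the second a methyltransferase, had means of both breeds of -0.12 and 0.062.

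**Figure D3:**
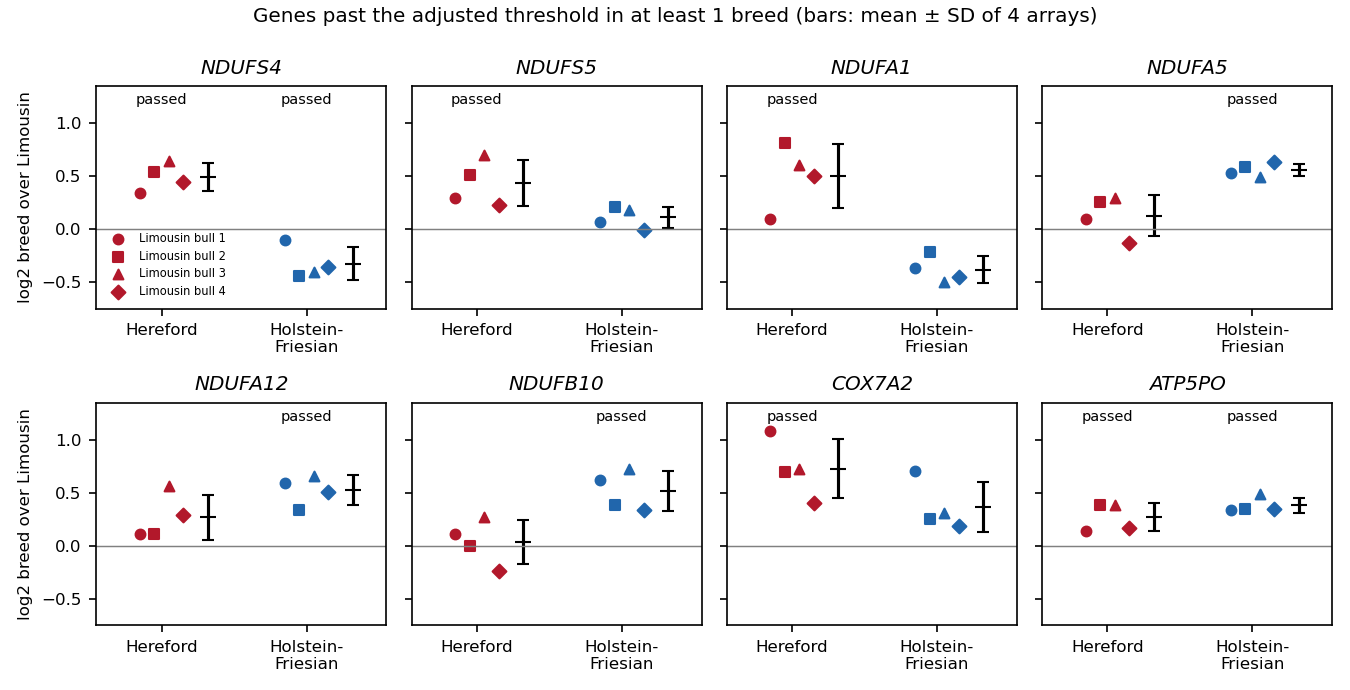
Log2 ratio to Limousin (vertical axis) on each array for the 8 genes that passed in at least 1 breed, with Hereford in red and Holstein-Friesian in blue, marker shapes for Limousin bulls 1 to 4, and bars for the mean and SD of 4 arrays. NDUFS4 and NDUFA1 lie above 0 in Hereford and below 0 in Holstein-Friesian, while ATP5PO lies above 0 on all 8 arrays.

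Complex II also belongs to the citric acid cycle, and it was the complex with medians below 0, at -0.075 in Hereford, -0.047 in Holstein-Friesian and -0.038 in the mean of both breeds for its 6 genes (0.24, -0.66 and -0.18 under median centring, so the Hereford sign turned, and -0.012 in Hereford and 0.014 in Holstein-Friesian in the same dye). After loess none of the 6 passed in limma in any comparison with all arrays (1 and 2 at an unadjusted p under 0.05 in Hereford and Holstein-Friesian). Under median centring SDHB and SDHC passed in Hereford minus Holstein-Friesian (1.06 and 0.81 log2, limma adjusted p = 0.0269 and 0.0396). In that setting 36.5% of all probes and 68.1% of all respiratory chain genes analysed here were called for this difference. These calls thus do not set complex II apart. SDHC was also called lower in the mean of both breeds under median centring, where 5.57% of all probes were called. SDHC, 1 of the pair of membrane anchors, stood at -0.64, -0.45, -0.011 and -0.49 in Hereford and at -0.35, -0.17, 0.12 and -0.13 in Holstein-Friesian. It was below Limousin on 7 of 8 arrays, with a Hereford mean of -0.40 (SD 0.27, n = 4, limma adjusted p = 0.0692) and the lowest mean of both breeds in the complex, -0.26 (SD 0.23, limma adjusted p = 0.244). SDHB, the iron-sulfur subunit, lay at the other end, with -0.074, 0.14, 0.32 and 0.090 in Hereford and 0.24, 0.20, 0.45 and 0.12 in Holstein-Friesian. It was above 0 on 7 of 8 arrays at a mean of 0.19 (SD 0.14, limma adjusted p = 0.242).

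SDHA, the flavoprotein that oxidises succinate, read -0.038, -0.45, 0.099 and 0.090 in Hereford and -0.002, -0.48, 0.040 and 0.10 in Holstein-Friesian. The low value in each breed came with Limousin bull 2, and the remaining ratios lay close to 0. SDHD, the other membrane anchor, was at -0.65, 0.030, 0.41 and 0.28 in Hereford and 0.089, -0.084, 0.37 and -0.41 in Holstein-Friesian, with values on both sides of 0 in each breed and a mean of 0.004 (SD 0.28). The assembly factors SDHAF1 and SDHAF3, which help to fit the iron-sulfur clusters, had means of -0.076 and -0.15 in Hereford and -0.11 and 0.48 in Holstein-Friesian, with SDs of 0.35 to 0.46.

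Complex III, the cytochrome bc1 complex, had 6 measured genes with medians of 0.14, 0.12 and 0.11 in Hereford, Holstein-Friesian and the mean of both breeds (0.45, -0.58 and -0.004 under median centring), and 0 of them passed in limma (1 unadjusted in Hereford and 2 in Holstein-Friesian). UQCRH, the hinge protein that helps cytochrome c1 to meet cytochrome c, was highest. It stood at 0.33, 0.40, 0.56 and -0.082 in Hereford and 0.21, 0.24, 0.55 and 0.26 in Holstein-Friesian, above Limousin on 7 of 8 arrays, with a mean of 0.31 (SD 0.19, n = 4 bulls, limma adjusted p = 0.154). UQCRFS1, the Rieske iron-sulfur protein, was lowest, with -0.084, -0.16, 0.14 and 0.23 in Hereford and -0.11, -0.38, -0.29 and -0.33 in Holstein-Friesian. All 4 Holstein-Friesian arrays were below Limousin while the Hereford arrays lay on both sides, and the Holstein-Friesian mean was -0.28 (SD 0.12, limma adjusted p = 0.0809). CYC1, cytochrome c1, read -0.054, -0.009, 0.12 and -0.30 in Hereford and 0.41, 0.026, 0.39 and -0.18 in Holstein-Friesian, with no common side of 0. UQCRQ, UQCR10 and the core protein UQCRC1 had means of both breeds of 0.23, 0.16 and -0.12, and in Hereford all 3 were lowest on the array with Limousin bull 4.

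Complex IV, cytochrome c oxidase, is the complex in which muscle has isoforms of its own. Its 11 genes had medians of 0.15, 0.11 and 0.17 in Hereford, Holstein-Friesian and the mean of both breeds (0.54, -0.51 and 0.051 under median centring). In Hereford 1 of the 11 rose (9.09%, against 7.14% of all probes). This was COX7A2, the isoform of subunit VIIa found in most tissues, at 1.08, 0.70, 0.72 and 0.40 in Hereford and 0.71, 0.25, 0.31 and 0.19 in Holstein-Friesian. All 8 arrays were above Limousin and the breeds overlapped. It rose in Hereford by 0.72 (SD 0.28, n = 4, limma adjusted p = 0.0168), a 1.65-fold difference and the largest mean ratio of the 72 genes in either breed after loess. In the same dye it was 0.92 (limma adjusted p = 0.0161), and in Holstein-Friesian it averaged 0.36 (SD 0.23, limma adjusted p = 0.114).

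COX7A1, the isoform of the same subunit found in heart and skeletal muscle, read 0.26, 0.38, 0.80 and -0.84 in Hereford and 0.62, -0.082, 0.32 and -0.059 in Holstein-Friesian. It had the widest spread of the 72 genes in Hereford (SD 0.70), set by the array with Limousin bull 4, and a mean of both breeds of 0.18 (SD 0.45, limma adjusted p = 0.694). COX6A2, the muscle isoform of subunit VIa, stood at 0.38, 0.12, 0.15 and -0.18 in Hereford and at 0.69, 0.016, 0.007 and 0.42 in Holstein-Friesian, above 0 on 7 of 8 arrays with a mean of 0.20 (SD 0.23, limma adjusted p = 0.355). The partner isoforms COX6A1 and COX8B were not matched to a probe, so the balance of those pairs was not analysed here.

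COX8A, the isoform of subunit VIII in most tissues, was at -0.23, -0.28, -0.17 and -0.79 in Hereford and at 0.20, -0.27, 0.36 and 0.24 in Holstein-Friesian. All Hereford arrays were below Limousin, and 3 of 4 Holstein-Friesian arrays above it. Its mean of both breeds, -0.12 (SD 0.19, limma adjusted p = 0.548), was the lowest of the complex. It too read lower in Cy5 than in Cy3 in Limousin itself (-0.27 log2, limma adjusted p = 0.0429), as did COX7A1 (-0.28, 0.0419), so that its opposite means in the 2 breeds cannot be told apart from dye.

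COX4I1, the common isoform of subunit IV, read 0.45, 0.23, 0.41 and -0.081 in Hereford and 0.21, -0.20, 0.27 and 0.080 in Holstein-Friesian, mostly above Limousin. COX4I2, the isoform known from lung, read 0.22, 0.65, 0.15 and 0.25 in Hereford and 0.48, 0.081, 0.047 and 0.009 in Holstein-Friesian, above 0 on all 8 arrays but close to it on 3 Holstein-Friesian arrays. Neither passed, with means of both breeds of 0.17 and 0.24 (limma adjusted p = 0.369 and 0.17). NDUFA4, once counted with complex I and now with complex IV, stood at 0.22, 0.23, 0.77 and 0.11 in Hereford and -0.009, -0.048, 0.14 and 0.35 in Holstein-Friesian, and its relative NDUFA4L2, a target of the hypoxia response, at 0.39, 0.29, -0.091 and 0.009 in Hereford and 0.30, -0.26, -0.43 and -0.11 in Holstein-Friesian. NDUFA4 was above Limousin on all Hereford arrays, and NDUFA4L2 had no common side in either breed. COX7B, COX6B2 and COX7A2L, the last a factor in joining complexes III and IV, had means of both breeds of 0.10, 0.060 and -0.029, with none past the threshold.

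Complex V, ATP synthase, had the highest complex median in Hereford, 0.23 for 13 genes, all of them at or above 0, against 0.12 in Holstein-Friesian with 8 of 13 above 0, and 0.19 in the mean of both breeds (0.60, -0.57 and 0.056 under median centring). ATP5PO, the stalk subunit that ties the catalytic head to the membrane part, stood at 0.14, 0.38, 0.38 and 0.17 in Hereford and 0.33, 0.35, 0.48 and 0.35 in Holstein-Friesian. All 8 arrays were above Limousin, within a narrow range. It rose in both breeds, by 0.27 in Hereford (SD 0.13, n = 4, limma adjusted p = 0.0451) and 0.38 in Holstein-Friesian (SD 0.071, n = 4, limma adjusted p = 0.0166), and was the 1 gene of the 72 with a rise in each. In the same dye it was 0.49 in Hereford (limma adjusted p = 0.0409) and 0.16 in Holstein-Friesian (0.224), and under median centring its Holstein-Friesian mean was -0.28.

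ATP5F1B, the catalytic beta subunit of the head, read 0.28, 0.16, 0.28 and 0.20 in Hereford and 0.29, 0.069, 0.37 and 0.081 in Holstein-Friesian. It too was above 0 on all 8 arrays, with a mean of 0.22 (SD 0.10, n = 4 bulls) that did not pass (limma adjusted p = 0.153). The alpha subunit ATP5F1A, its partner in the head, had means of 0.0002 in Hereford and -0.089 in Holstein-Friesian. The 3 genes for the proton-carrying c ring, ATP5MC1, ATP5MC2 and ATP5MC3, encode the same mature protein with different import signals, and had means of 0.48, 0.033 and 0.41 in Hereford and 0.069, 0.27 and -0.25 in Holstein-Friesian, with none past the threshold.

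ATP5MG, the g subunit of the membrane part, was lowest in complex V. Its ratios were 0.12, -0.13, 0.029 and 0.044 in Hereford and -0.62, -0.37, -0.55 and -0.010 in Holstein-Friesian. The Hereford arrays lay around 0 and the Holstein-Friesian ones below it, at a mean of -0.39 (SD 0.27, n = 4, limma adjusted p = 0.0589). ATP5IF1, the inhibitor that stops the enzyme from running backwards, read -0.069, 0.44, 0.21 and 0.65 in Hereford and 0.021, 0.24, -0.079 and 0.28 in Holstein-Friesian, with 3 of 4 arrays above 0 in each breed and a mean of 0.21 (SD 0.23, limma adjusted p = 0.336). The delta and epsilon subunits ATP5F1D and ATP5F1E, and ATP5PF, ATP5ME and ATP5MJ, had means of both breeds between 0.070 and 0.25.

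**Figure D4:**
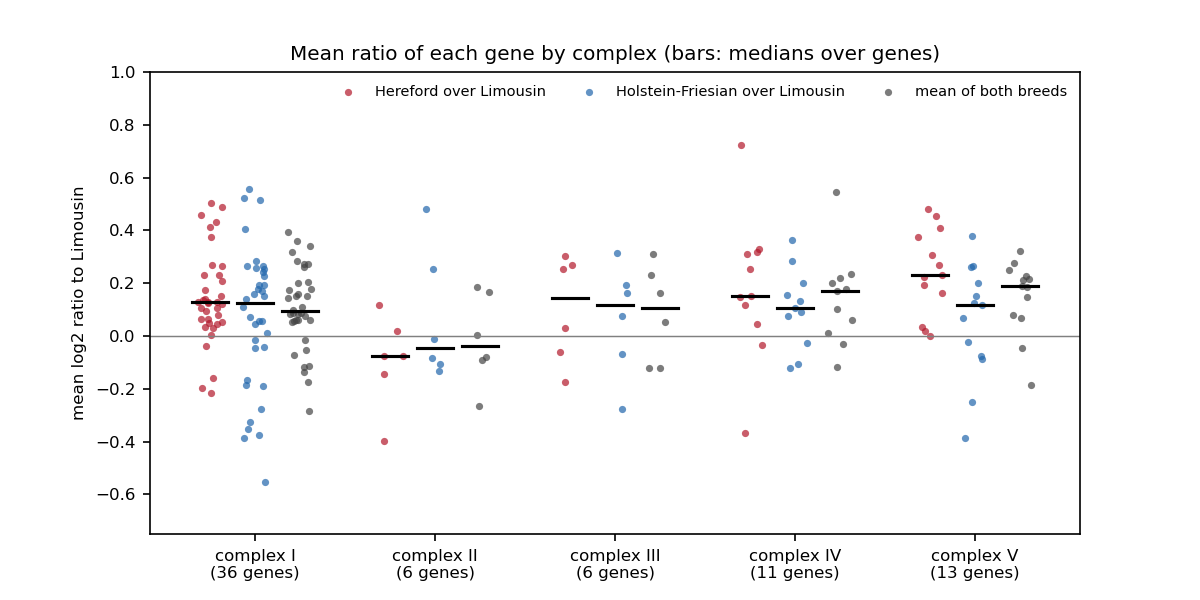
Mean log2 ratio to Limousin of each gene (points, vertical axis) by complex I to V (horizontal axis), with Hereford in red, Holstein-Friesian in blue, the mean of both breeds in grey, and bars at the median over genes. Complex V lies highest in Hereford (median 0.23) and complex II is the one with medians below 0 after loess; under median centring all 5 Holstein-Friesian medians were below 0 and the complex II median in Hereford was 0.24.

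The 2 marbled breeds were next set against each other through the shared Limousin bulls. In the test of the difference itself, 2 of 72 genes (2.78%) were higher in Hereford than in Holstein-Friesian and 0 lower, against 2.71% of all probes (1.56% higher and 1.15% lower). These were NDUFA1, by 0.89 log2 (SE 0.15, limma adjusted p = 0.0341), and NDUFS4, by 0.82 (SE 0.11, limma adjusted p = 0.0174), whose arrays are given above. Without replicate 1 both passed, and without replicate 2, 3 or 4 limma called 0 of the 72 (11, 9 and 13 unadjusted). Over all probes the fits without replicate 2, 3 or 4 called 0%, 0.141% and 0%, so almost nothing passed there in any gene. With the Limousin bull as a block 7 genes passed (9.72%, against 10% of all probes), 5 higher in Hereford (among them NDUFA1, NDUFS4, NDUFC1 and ATP5MC3) and 2 lower (NDUFA5 and NDUFB10). A dye effect adds up in this difference, so breed, slide and dye cannot be told apart in it.

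The Limousin bulls, each read in both dyes, showed how far animals of 1 breed differ in these genes. Each gene's level was set against the mean of the 4 bulls in the same dye. The median over the 72 genes was -0.027 in bull 1, 0.12 in bull 2, -0.13 in bull 3 and 0.066 in bull 4 in Cy5, and -0.052, 0.14, -0.13 and 0.055 in Cy3. The order of the bulls was the same on both slides, with bull 2 highest and bull 3 lowest. Over all named genes these medians stayed between -0.016 and 0.011. In bull 3, 58 of the 72 genes (80.6%) were below the mean of the 4 bulls in both dyes, as were 40.4% of all named genes, and in bull 2, 56 (77.8%) were above it in both, as were 40.6% of all named genes. Bull 3 was low in all 6 genes of complex II and all 6 of complex III, and bull 2 was high in all 6 of complex III. The labels do not say whether both dyes were put on 1 RNA extract of each bull, and fewer cells of a type and less RNA per cell cannot be told apart in RNA of whole muscle.

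**Figure D5:**
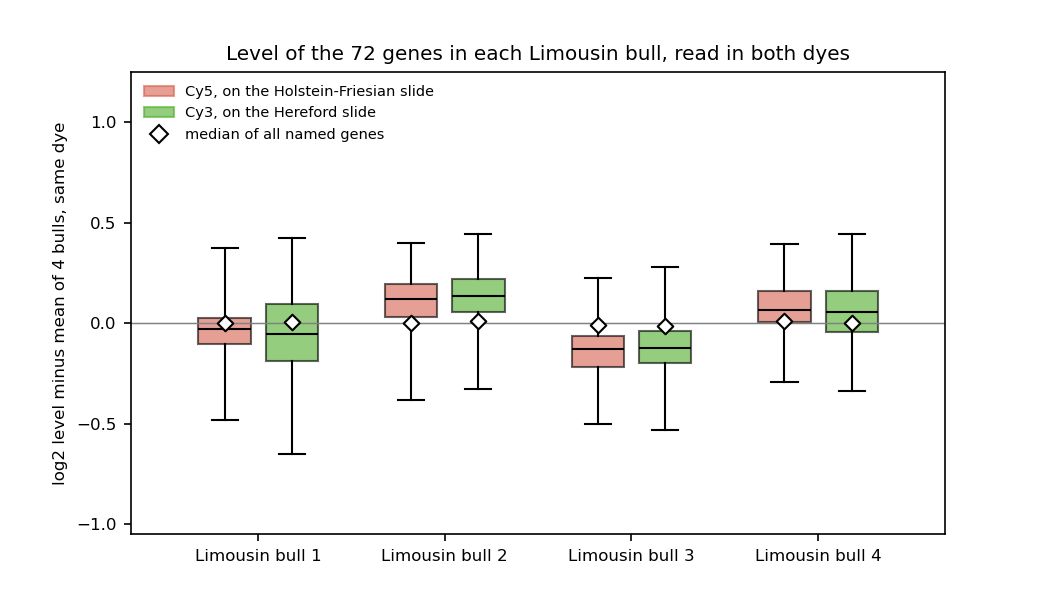
Log2 level of the 72 genes in each of 4 Limousin bulls minus the mean of the bulls in the same dye (vertical axis); boxes span the middle quartiles over genes with the median as a line, whiskers reach the lowest and highest gene, red is Cy5, green is Cy3, and diamonds are medians over all named genes. Bull 3 lies lowest (-0.13 in both dyes) and bull 2 highest (0.12 and 0.14), while the diamonds stay near 0.

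Since a ratio is taken against the bull on the same array, the Limousin level stands in the ratios as well. The set's medians on the arrays with Limousin bulls 1 to 4 were 0.12, 0.14, 0.33 and -0.052 in Hereford, and 0.20, -0.047, 0.18 and -0.010 in Holstein-Friesian. Both were high against bull 3 and below 0 against bull 4. Against bull 2, the highest Limousin bull in these genes, they lay on opposite sides of 0, at 0.14 and -0.047. The part of the Limousin level in these medians was not tested. For single genes the range over the 4 Limousin bulls, averaged over both dyes, had a median of 0.40 log2. COX7A1 ranged most, at -0.082, 0.18, -0.52 and 0.42 in bulls 1 to 4, a span of 0.93, and SDHB least, with a span of 0.10. Bull 3 was the lowest for 41 of the 72 genes. Within the other breeds the set's median deviation was -0.085, 0.14, 0.11 and -0.13 over the 4 Hereford bulls and 0.081, 0.007, -0.088 and -0.010 over the 4 Holstein-Friesian bulls, each from 1 array.

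The same Limousin bulls also show how these probes read in either dye, though slide and the breed on the same array change with the dye. Between Limousin in Cy5 and Limousin in Cy3, 6 of 72 genes (8.33%) passed in limma, against 4.4% of all probes. ATP5MC3 (0.35), NDUFS1 (0.35) and NDUFB3 (0.32) read higher in Cy5, and NDUFA5 (-0.40), COX7A1 (-0.28) and COX8A (-0.27) lower, with limma adjusted p-values of 0.0378 to 0.048. Of the 8 genes called in a breed, NDUFA5 is the 1 that passed here. In the same dye, 4 genes rose in Hereford (COX7A2, NDUFS5, ATP5PO and NDUFB1) and 3 in Holstein-Friesian (NDUFB10, NDUFB3 and NDUFB6). These are 5.56% and 4.17% of the 72 genes, near the 6.31% and 4.27% of all probes called there.

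Fibre type was read from a list of slow-twitch markers, of which 7 of 10 were measured, all above background in every reading. Their median ratio per array was 0.87, 1.59, 1.77 and 1.22 in Hereford and 1.89, 0.47, 0.93 and 0.011 in Holstein-Friesian. Their summed normalised signal was 430693 to 657262 in Hereford and 401395 to 934622 in Holstein-Friesian, against 186254 to 257597 (Cy3) and 229010 to 362611 (Cy5) in Limousin. The list's median over arrays was 1.37 in Hereford and 0.88 in Holstein-Friesian (1.79 and 0.20 under median centring), far above that of the 72 genes. Of the 7 slow-twitch markers 4 (57.1%) were called in Hereford (ATP2A2, MYH7, MYL2 and MYL3) and 1 (14.3%) in Holstein-Friesian (ATP2A2). Of all probes 7.14% and 6.45% were called. Of 12 fast-twitch markers 7 were measured, with medians per array of 0.25, -0.071, -0.13 and 0.56 in Hereford and -0.51, -0.33, -0.56 and -0.29 in Holstein-Friesian. Their median was 0.29 in Hereford and -0.48 in Holstein-Friesian (0.90 and -1.20 under median centring). In Holstein-Friesian 2 of the 7 were above 0, up to 0.51, and 2 fell (28.6%, against 6.45% of all probes). The falls were of PVALB (-1.90) and TNNC2 (-0.68), with limma adjusted p = 0.0111 and 0.0187. The summed signal of the fast-twitch markers was 988217 to 1099789 in Hereford and 785618 to 875505 in Holstein-Friesian. In Limousin it was 714060 to 877336 (Cy3) and 986314 to 1089569 (Cy5). All 6 fibroblast markers were measured, with a median of -0.049 in Hereford and -0.90 in Holstein-Friesian (0.25 and -1.51 under median centring, so the Hereford sign turned). In Holstein-Friesian 2 of the 6 were above 0, up to 0.27, and 1 fell (16.7%, against 6.45% of all probes). This was COL3A1, the lowest of the list (-2.53, limma adjusted p = 0.0125). The summed signal of the fibroblast markers was 30842 to 53482 in Hereford and 13800 to 29574 in Holstein-Friesian. In Limousin it was 32050 to 52912 (Cy3) and 27494 to 52081 (Cy5). The part of these markers in the ratios of the respiratory chain was not tested.

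Among genes that govern or serve the chain, PPARGC1A, the coactivator that drives mitochondrial biogenesis, had the largest ratio. It stood at 0.48, 1.59, 2.26 and 1.80 in Hereford and at 1.40, -0.008, 1.27 and -0.064 in Holstein-Friesian. All Hereford arrays were above Limousin, and Holstein-Friesian split into a pair well above 0 and a pair near it. The gene rose in Hereford by 1.53 (SD 0.76, n = 4, limma adjusted p = 0.0353) and was at 0.65 in Holstein-Friesian (SD 0.80, limma adjusted p = 0.292). It was the 1 of 7 measured regulators of biogenesis to pass (14.3% in Hereford, against 7.14% of all probes). Under median centring PPARGC1A stood at 1.76 in Hereford (limma adjusted p = 0.057). Without replicate 2, 3 or 4 its Hereford ratio was 1.29 to 1.52 and did not pass. NRF1, a transcription factor for respiratory chain genes, stood at 0.19 in Hereford and -0.055 in Holstein-Friesian, and ESRRA, a nuclear receptor that works with PPARGC1A, at -0.097 and -0.63, and neither passed.

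Assembly factors for the complexes stood closer to Limousin after loess. Of 33 listed factors for complexes III to V, 16 were measured, with medians of -0.023 in Hereford and 0.014 in Holstein-Friesian (0.20 and -0.48 under median centring). Of these, 0 passed in limma in either breed (1 and 4 unadjusted). The 6 measured factors of complex I without the NDUF prefix had medians of 0.033 in Hereford and -0.024 in Holstein-Friesian (0.26 and -0.46 under median centring), again with 0 past the threshold in limma (1 and 0 unadjusted). Among 7 measured genes of mitochondrial membrane structure 0 passed in limma (0 and 3 unadjusted), with medians of -0.064 and -0.085 (0.21 and -0.75 under median centring).

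Among 11 measured carriers and electron shuttles, 1 fell in each breed (9.09%, against 7.14% of all probes called in Hereford and 6.45% in Holstein-Friesian). DHODH, which feeds electrons from pyrimidine synthesis to ubiquinone, read -0.25, -0.64, -0.59 and -0.66 in Hereford and 0.15, 0.042, -0.016 and -0.071 in Holstein-Friesian. All Hereford arrays were below all Holstein-Friesian arrays, and the gene fell in Hereford by 0.54 (SD 0.19, n = 4, limma adjusted p = 0.0127), with a difference between breeds that passed as well (-0.56, limma adjusted p = 0.0437). In the same dye DHODH was at -0.32 in Hereford (limma adjusted p = 0.0227) and -0.19 in Holstein-Friesian (0.311). The difference did not pass with processed signals (limma adjusted p = 0.0897) or with all 16 readings above background (0.0555). Breed, slide and dye cannot be told apart in this difference. CKMT2, the mitochondrial creatine kinase of striated muscle, read -0.19, -0.43, 0.66 and 0.52 in Hereford and -0.69, -1.27, -1.25 and -0.99 in Holstein-Friesian, with all Holstein-Friesian arrays well below Limousin and the Hereford arrays on both sides of it. It fell in Holstein-Friesian by 1.05 (SD 0.27, n = 4, limma adjusted p = 0.0193). In the same dye CKMT2 was at -0.82 in Holstein-Friesian and did not pass (limma adjusted p = 0.0674). Both genes lost their call without replicate 2, 3 or 4, at -0.50 to -0.52 for DHODH and -0.98 to -1.07 for CKMT2. Under median centring the DHODH difference between breeds was 0.17 (limma adjusted p = 0.546), so its sign turned. In the main fit after loess, none of the 3 measured ADP/ATP carriers passed in limma. SLC25A4, the form of heart and muscle, averaged -0.39 in Hereford and -0.55 in Holstein-Friesian, SLC25A5 averaged 0.52 and 0.53 (limma adjusted p = 0.0611 and 0.0588), and SLC25A6 averaged -0.31 and 0.34 (limma adjusted p = 0.30 and 0.258). In some other settings SLC25A4 passed in Holstein-Friesian, at -0.75 in the same dye (limma adjusted p = 0.0269) and -1.24 under median centring (0.00542). SLC25A5 passed in Hereford in the same dye (0.58, limma adjusted p = 0.0444) and in Holstein-Friesian with processed signals (0.88, 0.0246).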

How the data were processed

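Total RNA of semitendinosus muscle from 12 bulls was measured on 8 bovine Agilent arrays with 2 channels each. Spot and local background brightness are median intensities per channel per the file headers, from Agilent Feature Extraction 10.7.3.1 (per the submitters' processing notes). Agilent's processed signals, also intensities per the file headers, had their background subtracted and their dyes balanced array by array. In the value table, the deposited numbers are log10 ratios of Cy5 over Cy3, not turned for the Holstein-Friesian slide, which equal the scanner log10 ratio in 44407 of 44407 spots. The median of each of its columns is 0. Other columns used are flags, per the file headers, and 0 value columns were left unmapped.

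Median signals were processed with limma 3.58.1 under R 4.3.3, with data.table (version 1.17.8), jsonlite 2.0.0 and statmod 1.5.0 (plots: matplotlib 3.10.9). They were corrected with normexp (offset 50) and normalized by loess (span 0.3). Control spots (in loess at weight 0) and outlier spots were left out, ratios were turned to breed over Limousin, and log2 ratios of 1 probe were averaged. A probe was kept with at least 4 of 16 readings well above background, where a reading counted if a share of 0.5 of its spots did, which left 17061 of 21475 probes. Gene symbols came from RefSeq (assembly ARS-UCD2.0) by accession and served as names alone, while the array annotation is of build Btau_3.1. Multiple probes of a gene were represented by the brightest, though each of the 72 genes had 1.

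Breed means were fitted with lmFit and eBayes over 8 arrays, the mean of both breeds was fitted on 4 values, and p-values (two-sided) were adjusted by Benjamini-Hochberg over all 17061 probes with a call under 0.05. They measure the spread between these bulls only. Same-dye ratios compared channels after Aquantile scaling. The replicate number marks the same Limousin bull on both slides, which is where the pairing comes from. Same-numbered arrays had deviation correlations of 0.415, 0.273, 0.50 and 0.0987, against a highest correlation with another number of 0.144, 0.00802, -0.0206 and 0.136, so that number 4 did not correlate best with itself. The fits were tested on simulated data. Of the 72 genes, 1 is not reported by name here. Full values are given for 25: those called in any comparison (at most the 8 smallest p in each direction), the highest and the lowest of each complex in the mean of both breeds, the COX4I, COX6A, COX7A and COX8 isoforms, and SDHA to SDHD, CYC1, CYCS, ATP5IF1, NDUFA4 and NDUFA4L2, where measured. The members and all gene lists were chosen with earlier results of these data known. Alternatives were processed signals, median centring, deposited ratios, filters on dim probes, single replicates left out, the bull as a block, each breed alone and the same dye.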

Additional observations from a re-analysis of the deposited data

Results flagged for a closer look

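Of 50 groups of 4 arrays (25 genes in each of 2 breeds), 3 had 1 array far from the other 3 by Dixon's test, and chance gives about 1 in 20. ATP5PO read 0.48 log2 on the Holstein-Friesian array with Limousin bull 3, against 0.33 to 0.35 on the others. UQCRH read 0.55 on the same array, against 0.21 to 0.26. COX4I2 read 0.48 on the Holstein-Friesian array with Limousin bull 1, against 0.009 to 0.081.

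The effect against Limousin differed between the breeds for 2 genes. Hereford minus Holstein-Friesian was 0.89 log2 for NDUFA1 (limma adjusted p = 0.0341) and 0.82 for NDUFS4 (limma adjusted p = 0.0174), with every Hereford array above Limousin and every Holstein-Friesian array below it. Breed, slide and dye cannot be told apart in these differences. In Limousin itself, Cy5 minus Cy3 was 0.16 for NDUFA1 and 0.19 for NDUFS4, and neither passed (limma adjusted p = 0.167 and 0.0714).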

How the results depend on the processing

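With 4 bulls a breed, calls moved with the processing. With Agilent's processed signals the counts of called genes out of 72 were 1 in Hereford, 3 in Holstein-Friesian and 1 for the difference between breeds (5.2%, 12.6% and 5.71% of all probes), and the deposited log ratios gave the same 1, 3 and 1. These 2 settings had the same set medians, 0.101 in Hereford, 0.109 in Holstein-Friesian and 0.108 in the mean, so they are not separate checks. Median centring gave 1 in Hereford, 24 in Holstein-Friesian (all lower), 2 in the mean of both breeds (NDUFS1 and SDHC, both lower) and 49 for the difference (all higher), where 1.85%, 39.1%, 5.57% and 36.5% of all probes were called, with set medians of 0.489 in Hereford, -0.556 in Holstein-Friesian and -0.013 in the mean of both. The replicate block, which pairs arrays by Limousin bull (consensus correlation 0.305), gave 4 in the mean of both breeds and 7 for the difference (5.33% and 10% of all probes), and ended the Holstein-Friesian call of NDUFS4, but no other call of a named gene. Arrays of Hereford alone gave 0 (15 at an unadjusted p under 0.05 in limma), and the same dye gave 3 in Holstein-Friesian. Leaving out 1 replicate gave 0 to 4 called genes in Hereford, 0 to 4 in Holstein-Friesian, 0 to 0 in the mean of both breeds and 0 to 2 for the difference. Of all probes, at most 6.18%, 4.75%, 0.00586% and 2.68% were called in these 4 comparisons. The set medians then lay between 0.074 and 0.193 in Hereford, 0.063 and 0.121 in Holstein-Friesian, and 0.091 and 0.163 in the mean. The cause of these changes was not tested.

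Under median centring, signs turned for 9 values of named genes that passed the threshold in at least 1 of the 2 settings. In Holstein-Friesian these were NDUFS5 (-0.565), ATP5PO (-0.275), NDUFA5 (-0.10), NDUFA12 (-0.135) and NDUFB10 (-0.16), and for Hereford minus Holstein-Friesian they were ATP5PO (0.877), SDHB (1.057), SDHC (0.811) and UQCRH (1.082). Of all values of named genes under the alternatives, 969 kept their side of 0 and of the threshold or moved by less than 1 SD, 70 lost a call, 27 gained one and 50 moved further. Most of these values were never called, since 928 passed in neither setting, and 57 of the 928 changed sign. The Hereford calls of NDUFS4 and NDUFA1 were each lost in 8 of 12 alternatives, and that of ATP5PO in 9. The Hereford call of COX7A2 was kept in 8 of 12, and the Holstein-Friesian call of NDUFA5 in 9. Counts changed by less than 1.5 times without a filter on dim probes and with all 16 readings above background. The mean over several probes of a gene was not run, because each of the 72 genes has 1 probe.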

Other observations

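Read in the same dye, 3 genes were called that had not passed on the within-array ratios, while the counts of called genes there (5.56% in Hereford and 4.17% in Holstein-Friesian) were near those of all probes (6.31% and 4.27%). NDUFB1 stood at 0.34 log2 in Hereford (limma adjusted p = 0.0444), and NDUFB3 and NDUFB6 at 0.59 and 0.41 in Holstein-Friesian (limma adjusted p = 0.0377 and 0.0448). On the within-array ratios they stood at 0.081 (NDUFB1, Hereford), 0.26 (NDUFB3, Holstein-Friesian) and 0.40 (NDUFB6, Holstein-Friesian), and none passed. COX7A2, at 0.92 in Hereford in the same dye, was at 0.17 in Holstein-Friesian there (limma adjusted p = 0.723).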
